A study of Mus musculus with 24 samples.

Results

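DNA replication and nucleotide supply were followed through 43 genes, of 23917 genes listed in both the RNA table and the ribosome footprint table. The 43 were chosen by name for their roles in copying DNA, with earlier results of these data known. All 43 were found by symbol in both tables. The cells were E14 mouse embryonic stem cells, an established line. One group was transfected with an oligonucleotide that contains locked nucleic acids (LNA) and is antisense to tRF-GG, fragments of glycine tRNAs; it is called the inhibitor here. A control group received an esiRNA (an siRNA pool made with an endoribonuclease) against GFP, and a further group was labelled mock. Each of the 3 transfections was measured by RNA-seq in 4 libraries and by ribosome profiling in 4 libraries, 24 libraries in all. The cell line was the same in all 6 groups, and transfection was the labelled difference. The labels number the libraries of each group from 1 to 4 but do not say that they came from separate cultures, so p-values measure only the spread between these libraries, which may be technical. The level of tRF-GG itself was not analysed here.

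Replication begins where the origin recognition complex binds DNA and, with CDC6 and CDT1, loads the MCM2-7 ring. CDC45 and the GINS tetramer turn that ring into the active helicase, polymerase alpha with primase lays down primers, and polymerases delta and epsilon extend them on the PCNA clamp, which the RFC complex loads. RPA coats the single strands, FEN1 and LIG1 finish the lagging strand, and ribonucleotide reductase and thymidylate synthase supply deoxynucleotides. Mouse embryonic stem cells divide fast, with a short G1 phase, and keep much of this machinery expressed through the cycle. Many of these genes are textbook targets of E2F factors, which drive expression at the entry to S phase, and many have CCAAT boxes, which NF-Y binds.

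Promoter sequence was read from RefSeq windows of GRCm38.p6 that hold 250 bases before and 50 after an annotated start, because the members are commonly described as sharing E2F control. Of the 43 genes, 36 had a window and these held 44 windows in all. The words of the E2F kind were searched on both strands (TTTGGCGC, TTTCCCGC, TTTGCCGC and TTTCGCGC), and hits may overlap. A word was present in 15 windows, 1 for each of 15 members, which is 34.1% of the windows, against 2.26% of all 32851 windows and 4.08% of the 11794 windows of genes tested in RNA. The short word CCAAT, also searched on both strands, was present in 56.8% of the members' windows against 37.4% of all windows and 38.1% of those of genes tested in RNA. Median GC content was 60.7% in the members' windows, 52.7% in all windows and 61% in those of genes tested in RNA. The following lines show 1 E2F word for the licensing genes, for 4 MCM subunits and for the polymerase alpha gene whose values are described below, with the matched word in capitals and the strand of the gene read 5′ to 3′.
Orc1: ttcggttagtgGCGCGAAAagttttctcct
Cdc6: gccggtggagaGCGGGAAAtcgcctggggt
Cdt1: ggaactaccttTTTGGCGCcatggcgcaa
Mcm3: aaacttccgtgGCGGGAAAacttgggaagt
Mcm5: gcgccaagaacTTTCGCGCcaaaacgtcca
Mcm6: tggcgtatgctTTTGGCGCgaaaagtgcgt
Mcm7: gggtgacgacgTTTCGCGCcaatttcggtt
Pola1: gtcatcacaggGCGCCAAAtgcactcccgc

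These stretches lie at chr4:108579416-108579445 for Orc1, chr11:98908002-98908031 for Cdc6 and chr8:122568036-122568064 for Cdt1, all on the plus strand. Mcm5 lies at chr8:75109345-75109374 on the plus strand. On the minus strand are Mcm3 at chr1:20820275-20820304, Mcm6 at chr1:128359797-128359826, Mcm7 at chr5:138171849-138171878 and Pola1 at chrX:93632275-93632304. Counted from the annotated start of the window, the capitals begin at position -110 in Mcm6, at -138 in Cdc6 and in Pola1, at -27 in Orc1 and at 32 in Cdt1. That start need not be the outermost start of the gene. The stretches of Orc1, Cdc6 and Pola1, whose words lie before that start, are inside the annotated span of their gene. So are those of Cdt1, Mcm3 and Mcm7, whose words lie after it. In Mcm6 a second word overlaps the first, and in Mcm5 the word at -153 overlaps another at -149. A word match is a description of these letters and not a measured binding site. CCAAT boxes are shown for the clamp, for the small subunit of ribonucleotide reductase and for a single-strand binding subunit, which had no E2F word in the windows read.
Pcna: ccacgggtacgATTGGtccttgaggag
Rrm2: gtcagcggcgtCCAATgggaggcgagg
Rpa2: catgagttctgATTGGctgaaggtaaa

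The first lies at chr2:132253252-132253278 on the minus strand, the second at chr12:24708193-24708219 on the plus strand and the third at chr4:132768265-132768291 on the plus strand. Both words were present in the windows of 8 members. No window was at hand for Gins1, Gins2, Gins4, Mcm4, Pole, Prim2 and Rfc2.

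The deposited values were FPKM, which are per length and per library total, and they are given here after scaling between libraries (scaled FPKM). How many reads lie behind a value is unknown, and intervals for counting error are therefore left out. Relative depth, read from the steps between low values, spanned 13.7-fold in RNA and 4.86-fold in footprints. It is a rough estimate, which 56 of 63 library pairs in RNA and 62 of 66 in footprints met within 0.1 log2 units. The lowest RNA value was that of mock RNA 3, at 7.31% of the deepest library. The ribosomal precursor Rn45s made up 62.7% of summed FPKM in inhibitor RNA 1, 39.1% in mock RNA 1 and 18.1% in GFP RNA 1, and 1.68% to 5.25% in the other RNA libraries. Markers of embryonic stem cells, 10 genes such as Pou5f1 and Nanog, summed to 2605 to 3808 scaled FPKM in RNA. The 9 fibroblast markers summed to 3.59 to 7.61 in GFP RNA, 3.91 to 7.05 in mock and 5.56 to 14.4 with the inhibitor. Among them Thy1 ranged from 2.72 to 12.9 in RNA, and Lum and Dcn were at 0 in all 12 RNA libraries. For 6 primitive endoderm markers the ranges were 4.33 to 15.1, 4.35 to 15.7 and 4.45 to 23.5. The 7 trophoblast markers summed to 5.05 to 15.5 in GFP RNA, 7.05 to 15.9 in mock and 11.002 to 34.5 with the inhibitor. Among them Plet1 ranged from 1.11 to 17.5 and Tfap2c from 2.22 to 11.5 in RNA, and Elf5 was at 0 in 11 of the 12 RNA libraries. The part of these shares and markers in the results was not tested. In such bulk samples, fewer cells in S phase and less RNA per cell cannot be told apart.

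The inhibitor contains LNA and the GFP control is an esiRNA, so blocking of tRF-GG and effects of either reagent cannot be told apart. The comparison of the inhibitor with the GFP control asks which genes differ in mRNA, in ribosome footprints, or in their ratio. None of the 43 genes passed the test in any of these measures. By limma over all genes, 0 of 43 passed an adjusted p of 0.05 in mRNA, where 0.0159% of 12557 genes did, and 0 of 43 passed in footprints, where 0.00938% of 10661 genes did. Translational efficiency, footprints relative to RNA, was tested as an interaction, and there 0 of 43 passed and 0% of 10489 genes did. At an unadjusted p under 0.05 the counts were also 0 of 43 in each, against 3.11% of all genes in mRNA, 3.31% in footprints and 0.715% in translational efficiency.

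In mRNA the members' median log2 difference was 0.01 and that of all genes tested was -0.01, with 23 members above and 20 below 0. Footprints had a median of 0.08 against 0.01 for all genes, with 30 members above 0. The median for translational efficiency was 0.04 against 0.03, with 25 members above 0. Single members ranged from -0.71 (Pola1) to 0.53 (Rfc4) in mRNA, from -0.53 (Pola1) to 0.33 (Rrm1) in footprints and from -0.36 (Prim2) to 0.37 (Prim1) in translational efficiency. A missed threshold does not show that values were equal, and the 95% intervals say what sizes remain possible. They lay within 1 log2 unit of 0 on both sides for 41 of 43 genes in mRNA and in footprints and for 32 in translational efficiency. Intervals within 0.5 log2 units were reached by 16, 18 and 4 genes. The narrowest interval extended 0.27 log2 units to each side (Rpa2, footprints) and the widest 1.22 (Pola1, translational efficiency).

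**Figure D1:**
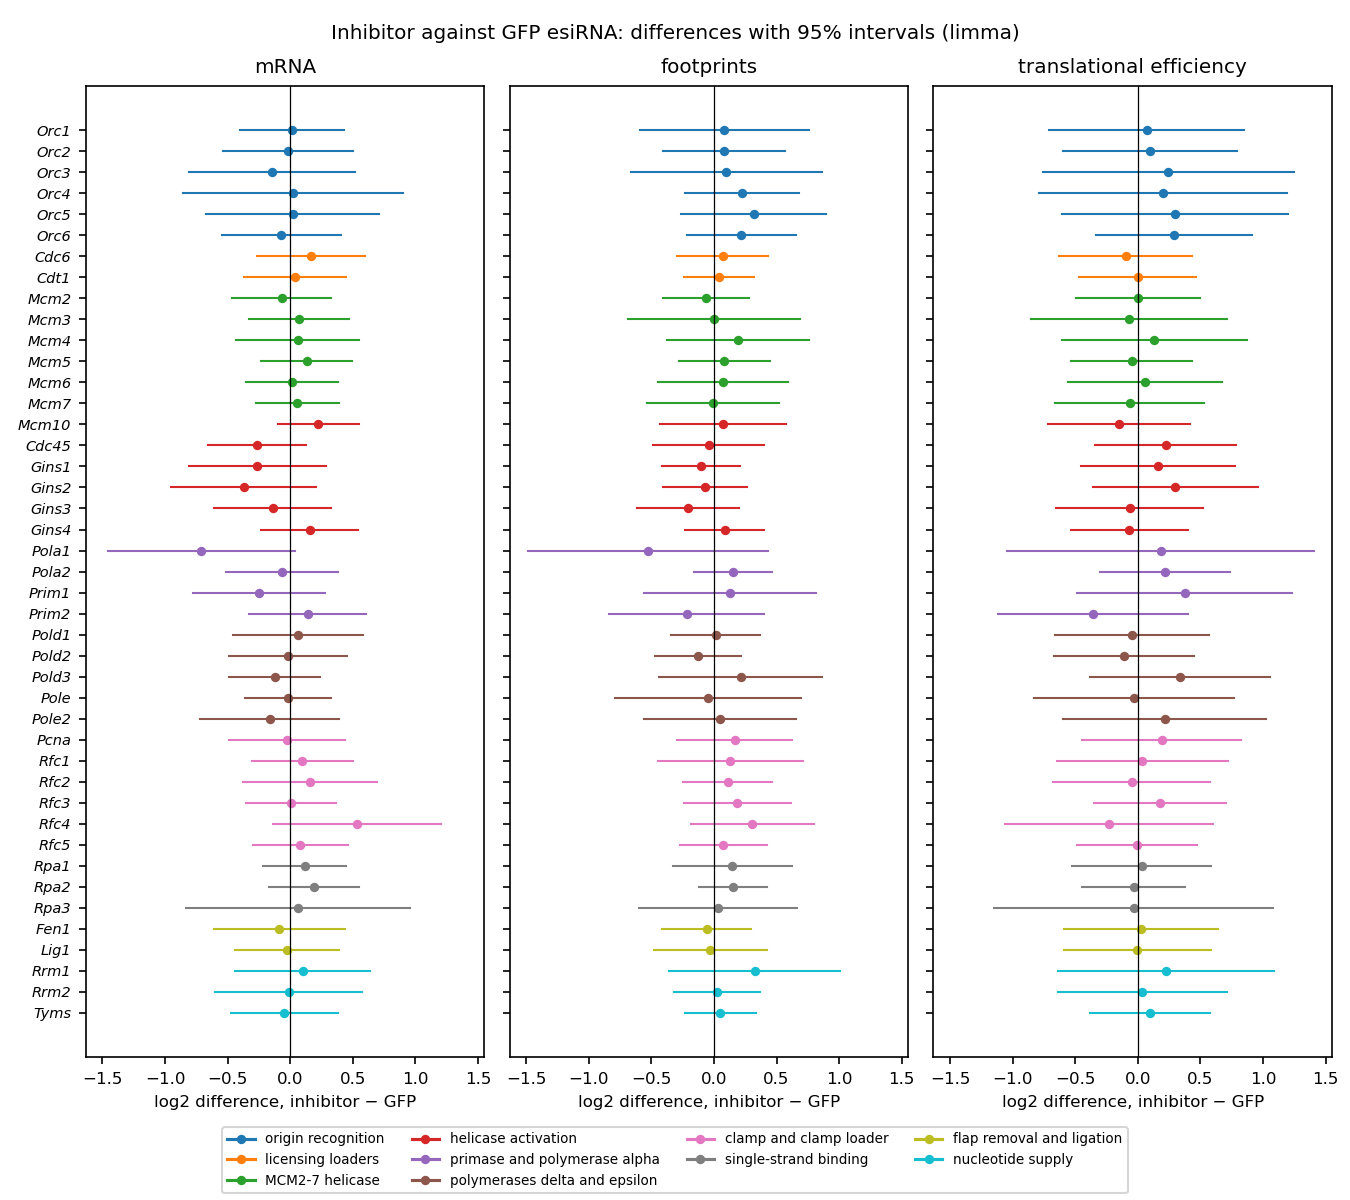
Log2 difference between inhibitor and GFP esiRNA libraries for the 43 genes in mRNA, footprints and translational efficiency (horizontal axes), by gene (vertical axis) and coloured by role; points are limma estimates and lines 95% intervals, n = 4 libraries per group and assay. The median gene sits at 0.01, 0.08 and 0.04, and Pola1 has the lowest estimate in mRNA (-0.71) and in footprints (-0.53).

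Same-numbered RNA libraries deviated together in all groups, though inhibitor RNA 3 followed a mock library of another number slightly more closely. Same-numbered inhibitor and GFP footprint libraries also deviated together, so the number was also fitted as a block. With the block 0 of 43 genes passed in mRNA, where 0.255% of all genes did, and 0 of 43 in footprints, where 0.0750% did. Unadjusted p-values under 0.05 were then reached by 2 genes in mRNA and 2 in footprints, Pola1 (lower) and Rfc4 (higher) in both, against 6.86% and 7.75% of all genes. Intervals narrowed, and 28 genes in mRNA and 32 in footprints lay within 0.5 log2 units of 0. These blocked footprint values come from a fit that also holds the mock libraries, of which numbers 1 and 2 did not deviate with the same numbers of the other groups. In a blocked fit of GFP and inhibitor footprints alone, 0 of 43 genes passed against 0.422% of all genes, and 35 had intervals within 0.5 log2 units of 0. An unadjusted p under 0.05 was then reached by 3 genes, Pola1 (adjusted p = 0.167 by limma), Rfc4 (0.380) and Rrm1 (0.452), against 10.6% of all genes.

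Counted by pairs, 7 members were higher with the inhibitor than with GFP in all 4 same-numbered mRNA pairs (Cdc6, Mcm10, Gins4, Prim2, Rfc4, Rfc5 and Rpa1) and 2 were lower (Pola1 and Prim1), where 8.52% and 9.32% of all genes did so. In footprints 11 members were higher in all 4 pairs and 3 lower, against 11.0% and 9.01% of all genes. Rfc4 and Rpa1 were higher in every pair of both assays and Pola1 was lower in every pair of both, against 2.44% of genes higher and 2.49% lower. No member had inhibitor and GFP groups that did not overlap in mRNA, where 1.09% of genes were wholly higher and 1.20% wholly lower. In footprints Rpa2 was the 1 member with groups that did not overlap, higher with the inhibitor, where 1.22% of genes were wholly higher and 0.872% wholly lower.

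All 43 genes were above the median tested gene in GFP RNA, and 41 were in GFP footprints. The members' median level was 28.9 scaled FPKM in GFP RNA against 6.99 for all genes tested, and 19.5 against 3.72 in footprints. RNA and footprint tables were scaled separately, so a ratio between them has no natural zero and is read against other genes. The median log2 ratio of footprints to RNA in GFP cells was -0.61 for the members and -0.83 for all genes, with 30 of 43 members above the latter. The sources used here do not say whether footprint FPKM were divided by the length of whole transcripts, which would lower the ratio of genes with long untranslated regions.

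**Figure D2:**
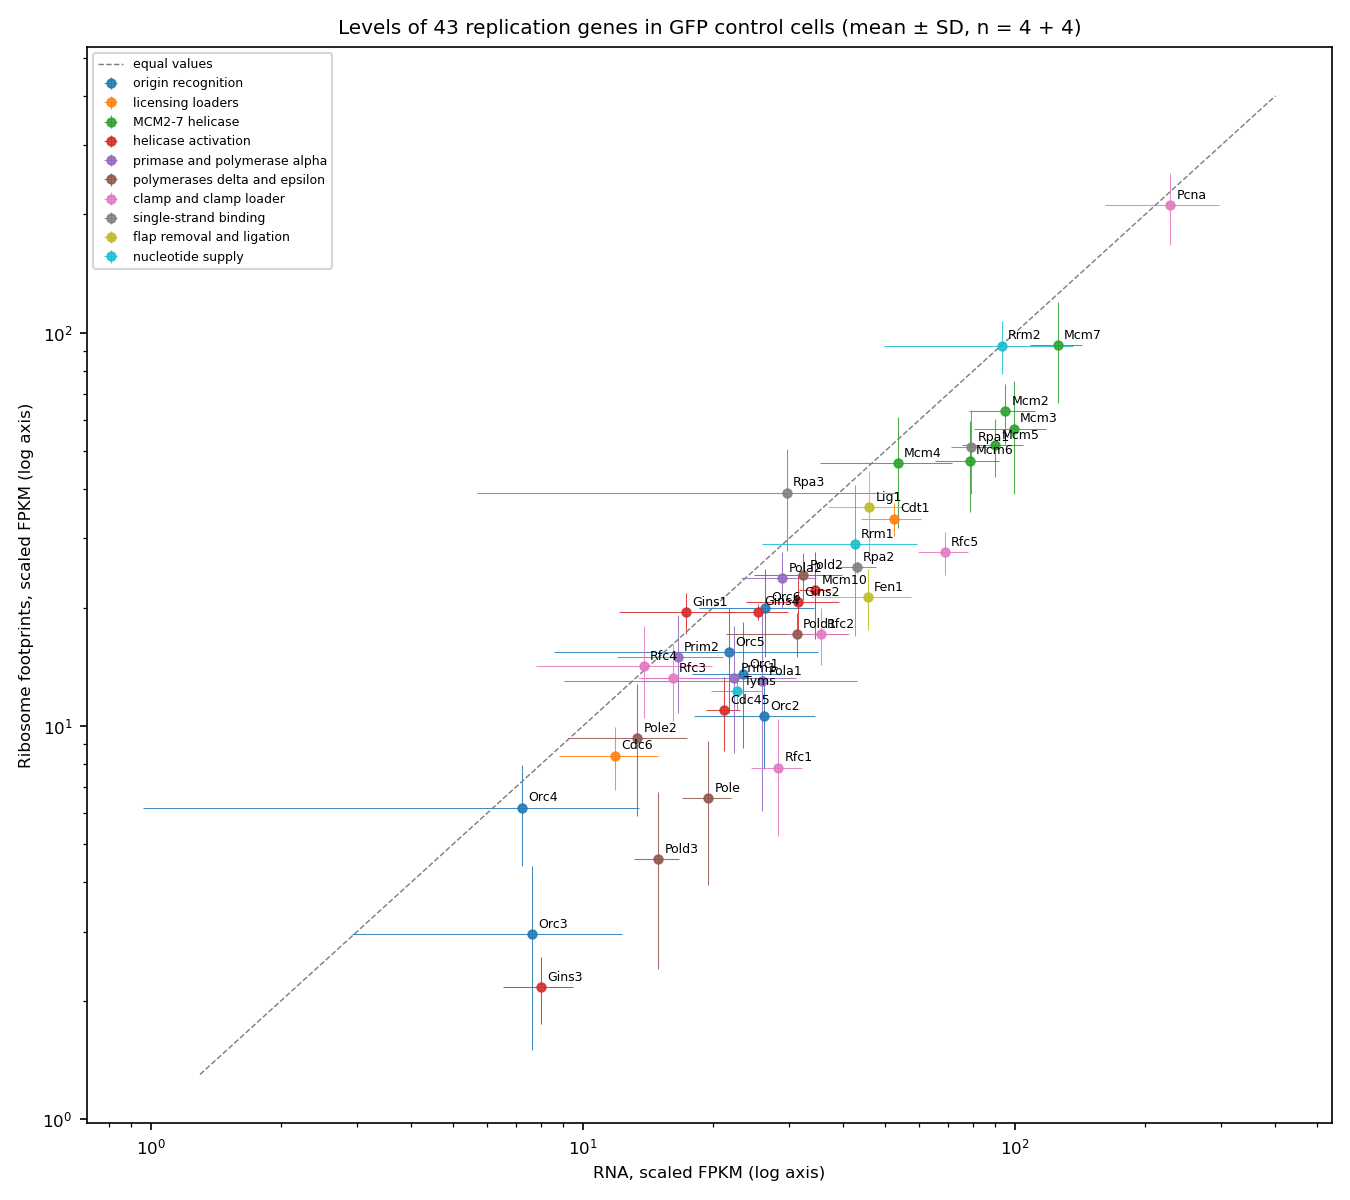
Mean level of each of the 43 genes in GFP RNA (horizontal, log axis) and GFP footprints (vertical, log axis) in scaled FPKM, coloured by role, with bars for the SD over 4 libraries and a dashed line at equal values. Pcna stands highest at 228 and 211, and Gins3 lowest in footprints at 2.16.

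The origin recognition complex is a ring of subunits that marks origins, and its members were unequal in level. In GFP RNA the means ran from 7.22 for Orc4 and 7.62 for Orc3 to 26.4 for Orc6, a span of 3.65-fold, and in GFP footprints from 2.95 for Orc3 to 20.01 for Orc6, a span of 6.78-fold. Orc1 (23.4 in RNA), Orc2 (26.2) and Orc5 (21.7) stood near Orc6. Orc3 footprints were 4.70, 3.28, 1.22 and 2.60 in GFP libraries 1 to 4, 3.64, 5.12, 1.95 and 3.04 in mock, and 4.84, 3.52, 1.005 and 3.83 with the inhibitor. Library 3 was lowest in each group and the groups overlapped. Orc3 RNA was 5.19, 14.7, 5.39 and 5.23 in GFP libraries, 6.23, 8.24, 5.46 and 6.97 in mock and 7.12, 8.68, 5.96 and 3.70 with the inhibitor, with GFP library 2 far above the rest.

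Orc6 RNA was 24.4, 37.9, 22.04 and 21.1 in GFP libraries, 27.2, 26.1, 25.2 and 21.2 in mock and 24.9, 34.1, 22.6 and 18.3 with the inhibitor. Its footprints were 26.5, 21.3, 16.6 and 15.6 in GFP libraries, 18.9, 23.3, 20.1 and 14.1 in mock and 25.3, 26.1, 17.7 and 23.8 with the inhibitor. The groups overlapped in both assays.

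Orc4 RNA was 4.35, 16.6, 4.83 and 3.15 in GFP libraries, 4.94, 7.78, 4.29 and 4.64 in mock and 7.53, 10.2, 5.36 and 3.002 with the inhibitor. GFP library 2 stood far above the other GFP libraries, and the 3 groups overlapped. Orc4 footprints were 8.48, 6.74, 4.63 and 4.95 in GFP libraries, 7.87, 7.58, 5.65 and 5.59 in mock and 9.77, 5.65, 6.17 and 7.88 with the inhibitor, which overlapped. The inhibitor differed from GFP by 0.02 (log2, SE 0.41) in Orc4 mRNA and by 0.22 (SE 0.21) in its footprints. Differences of the 6 subunits lay between -0.15 (Orc3) and 0.02 in mRNA and between 0.08 and 0.32 (Orc5, SE 0.27) in footprints, none past the test. The loaders Cdc6 and Cdt1, which bring MCM2-7 to the complex, had GFP RNA levels of 11.8 ± 3.04 and 52.3 ± 8.30 (SD, n = 4). Their mRNA differed between inhibitor and GFP by 0.17 (SE 0.20) and 0.04 (SE 0.19).

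The MCM2-7 subunits, which form the 6-membered helicase ring in equal numbers, were among the most abundant members. Means in GFP RNA lay between 53.5 for Mcm4 and 125 for Mcm7, a span of 2.35-fold, and in GFP footprints between 46.6 and 92.9, a span of 1.99-fold. Mcm2 (63.1 in footprints), Mcm3 (57.0), Mcm5 (51.8) and Mcm6 (47.3) lay between. Mcm7 RNA was 117, 113, 121 and 151 in GFP libraries, 127, 139, 122 and 123 in mock and 122, 121, 132 and 144 with the inhibitor. Mcm4 RNA was 48.97, 80.1, 44.3 and 40.5 in GFP libraries, 53.1, 59.8, 43.7 and 45.6 in mock and 56.8, 72.1, 48.01 and 42.3 with the inhibitor. Both genes overlapped between the groups, and library 2 was the highest of each group for Mcm4.

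Footprints of Mcm7 were 119.9, 93.4, 56.7 and 101 in GFP libraries, 92.9, 108, 63.2 and 93.7 in mock and 106, 93.3, 63.7 and 99.8 with the inhibitor. Footprints of Mcm4 were 66.5, 46.9, 31.9 and 40.96 in GFP libraries, 50.5, 64.4, 32.1 and 43.6 in mock and 67.96, 51.1, 35.6 and 56.4 with the inhibitor. Library 3 was the lowest of each group for both genes, and the groups overlapped. Inhibitor and GFP differed by -0.07 (Mcm2, SE 0.19) to 0.13 (Mcm5, SE 0.17) in mRNA and by -0.07 (Mcm2) to 0.19 (Mcm4, SE 0.26) in footprints. The coefficient of variation over the 6 footprint means was 29.1% in GFP, 25.04% in mock and 24.9% with the inhibitor.

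Of the genes that activate the helicase, Mcm10, a fork factor that binds the ring and polymerase alpha, stood at 34.5 ± 2.91 in GFP RNA, 36.6 ± 0.95 in mock and 40.5 ± 5.06 with the inhibitor (SD, n = 4). Its difference from GFP was 0.22 (log2, SE 0.15), positive in 4 of 4 pairs and not past the test. Cdc45 differed by -0.27 (SE 0.18) in mRNA and -0.04 (SE 0.21) in footprints. The GINS tetramer, built of 1 copy of each subunit, was the most uneven complex in footprints, from 2.16 for Gins3 to 20.7 for Gins2 in GFP cells, 9.56-fold apart; Gins1 (19.5) and Gins4 (19.5) stood with Gins2.

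Gins3 footprints were 1.90, 2.55, 1.72 and 2.48 in GFP libraries, 1.88, 2.26, 2.07 and 1.38 in mock and 1.26, 2.66, 1.19 and 2.03 with the inhibitor. The groups overlapped, and all 12 values were below the lowest Gins2 value. Gins3 RNA was 6.98, 9.05, 6.49 and 9.45 in GFP libraries, 7.61, 6.05, 5.56 and 9.50 in mock and 8.30, 8.78, 5.55 and 6.13 with the inhibitor, which overlapped. With 1 added to each value, which matters at levels this low, the Gins3 ratio of footprints to RNA was -1.50 (log2, SE 0.15). It was at the 17th percentile of genes, and Gins1, at 0.19 (SE 0.20), was at the 93.7th.

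Gins2 footprints were 24.4, 17.8, 22.97 and 17.5 in GFP libraries, 17.4, 20.1, 20.3 and 15.7 in mock and 19.99, 19.9, 21.6 and 16.6 with the inhibitor. Gins2 RNA was 33.2, 23.1, 28.6 and 41.2 in GFP libraries, 28.1, 20.6, 27.6 and 24.4 in mock, and 12.1, 29.9, 28.2 and 30.1 with the inhibitor. The low inhibitor value was that of library 1, which had the highest Rn45s share. The mRNA difference from GFP was -0.37 (SE 0.27), and by same-numbered pair it was -1.38, 0.36, -0.02 and -0.44 in libraries 1 to 4. The part of the Rn45s share in this was not tested.

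**Figure D3:**
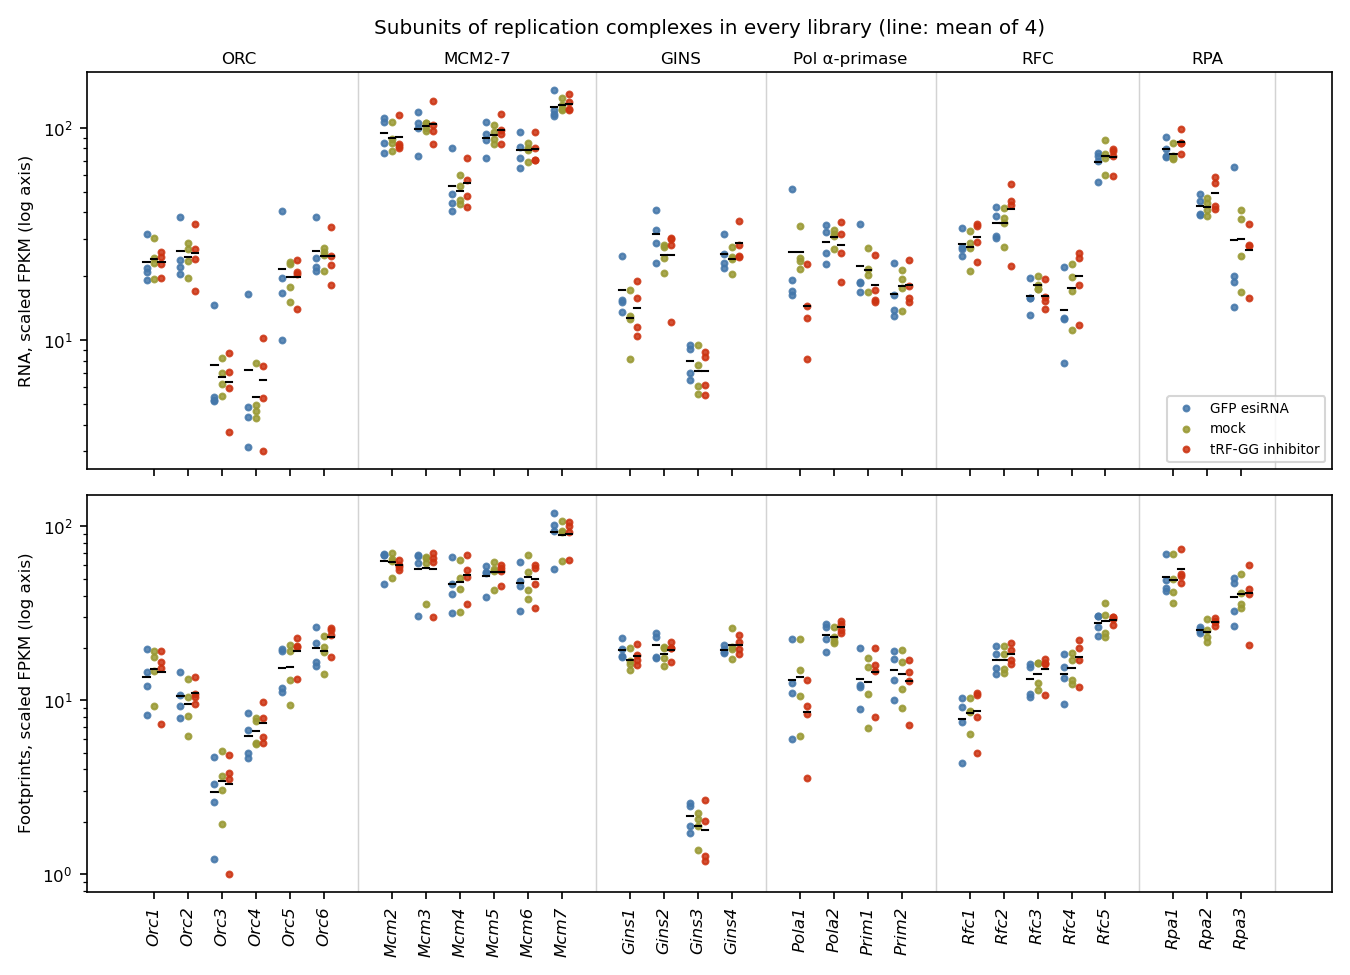
Scaled FPKM (log axis) of each subunit of ORC, MCM2-7, GINS, polymerase alpha-primase, RFC and RPA in RNA (upper) and footprints (lower); each point is 1 library, coloured by transfection, and short lines are means of 4. The 3 transfections overlap for nearly every subunit, and Gins3, at 2.16 in GFP footprints, is the lowest GINS subunit in all 3.

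Polymerase alpha-primase held the member with the lowest differences. Pola1, the catalytic subunit of polymerase alpha, is the longest of the 43 genes, spanning 327.6 kb at chrX:93304766-93632387 (GRCm38.p6), against a median span of 17.3 kb and 216 kb for Prim2, the next longest. Pola1 RNA was 19.3, 51.4, 16.4 and 17.0 scaled FPKM in GFP libraries, 24.3, 34.6, 23.6 and 21.5 in mock, and 14.5, 22.7, 12.8 and 8.13 with the inhibitor. Inhibitor values were below those of the same number in both controls throughout, but inhibitor library 2 exceeded 3 GFP libraries, so the groups overlapped. Footprints of Pola1 were 22.4, 12.6, 5.94 and 11.03 in GFP libraries, 14.9, 22.6, 6.21 and 10.6 in mock, and 13.0, 8.30, 3.57 and 9.28 with the inhibitor. Here too each inhibitor value was below the GFP value of its number, and the groups overlapped widely.

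The Pola1 mRNA difference from GFP was -0.71 (log2, SE 0.35, unadjusted p = 0.0607, adjusted p = 1 by limma), and with the block -0.71 (SE 0.19, unadjusted p = 0.00296, adjusted p = 0.275). Without GFP RNA 2, but with inhibitor RNA 2 kept, the unpaired estimate was -0.34. By same-numbered pair the mRNA difference was -0.38, -1.14, -0.33 and -0.98 in libraries 1 to 4. In footprints it was -0.53 (SE 0.44, adjusted p = 1; with the block SE 0.20 and adjusted p = 0.534), -0.24 without GFP footprint 1 and -0.21 without inhibitor footprint 3. The fits without 1 footprint library were unpaired and kept its same-numbered partner. By pair the footprint difference was -0.74, -0.54, -0.60 and -0.23 in libraries 1 to 4. Translational efficiency of Pola1 differed by 0.18 (SE 0.59), so that no difference in the ratio was resolved.

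The other subunits did not share this pattern in both assays. Prim1, the catalytic subunit of primase, had RNA levels of 16.8, 35.4, 18.7 and 18.6 in GFP libraries and 15.4, 25.2, 17.2 and 15.1 with the inhibitor, lower in 4 of 4 pairs with groups that overlapped (-0.25, SE 0.25), while its footprints differed by 0.12 (SE 0.32). Pola2, the accessory subunit, differed by -0.06 (SE 0.21) in mRNA and 0.15 (SE 0.14) in footprints.

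Prim2, the large primase subunit, had RNA of 16.3, 23.1, 13.01 and 13.8 in GFP libraries, 19.4, 21.4, 17.6 and 13.8 in mock and 18.1, 23.8, 15.1 and 15.8 with the inhibitor. Its footprints were 19.3, 17.4, 10.1 and 13.04 in GFP libraries, 16.5, 19.4, 11.6 and 8.98 in mock and 16.9, 14.4, 7.24 and 12.8 with the inhibitor. Against GFP, Prim2 was thus higher in RNA and lower in footprints in all 4 pairs, with a translational efficiency difference of -0.36 (SE 0.37, adjusted p = 1 by limma), and its RNA and footprint groups overlapped. Leaving out 1 library moved that difference between -0.52 (without GFP RNA 2) and -0.13 (without inhibitor footprint 3).

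Among the replicative polymerases, Pold1 and Pole, the catalytic subunits of delta and epsilon, stood at 31.3 ± 9.83 and 19.5 ± 2.55 in GFP RNA and at 17.1 ± 2.18 and 6.55 ± 2.60 in footprints (SD, n = 4). Pold3, an accessory subunit of polymerase delta, had the smallest p among positive differences in translational efficiency, at 0.34 (SE 0.35). Its RNA was 16.2, 16.7, 13.2 and 13.6 in GFP libraries, 14.7, 14.4, 10.7 and 14.7 in mock and 14.00, 14.99, 11.7 and 13.8 with the inhibitor. Its footprints were 7.72, 4.14, 3.91 and 2.62 in GFP libraries, 5.34, 7.38, 4.72 and 3.85 in mock and 7.84, 7.14, 3.08 and 3.92 with the inhibitor. Both assays overlapped, and the GFP footprint values ranged from 2.62 to 7.72. Leaving out 1 library moved the Pold3 difference between 0.15 (without GFP footprint 4) and 0.57 (without GFP footprint 1). Pold3 and Pole had low ratios of footprints to RNA, -1.58 (14.4th percentile of genes) and -1.52 (16.5th). Pold2 and Pole2, small accessory subunits, differed from GFP in mRNA by -0.02 and -0.16 and in footprints by -0.13 and 0.05.

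The clamp Pcna was the most abundant member in both assays. Its RNA was 204, 327, 208 and 175 in GFP libraries, 185, 249, 203 and 180.4 in mock and 218, 235, 261 and 169 with the inhibitor. Its footprints were 266, 228, 177 and 174 in GFP libraries, 231, 259, 186 and 149 in mock and 292, 240.3, 181 and 234 with the inhibitor. Both assays overlapped between the groups, with GFP RNA 2 the highest RNA value. The clamp loader, made of 1 large subunit and 4 small ones, was uneven: in GFP RNA Rfc5 stood at 68.7 and Rfc4 at 13.8, 4.97-fold apart, with Rfc1 at 28.3, Rfc2 at 35.5 and Rfc3 at 16.1. In GFP footprints the span was 3.54-fold, from 7.83 for Rfc1, the large subunit, to 27.7 for Rfc5.

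Rfc1 had the lowest ratio of the 43, -1.78 (SE 0.26), at the 8.99th percentile of genes. Its RNA was 24.9, 33.9, 26.9 and 27.5 in GFP libraries, 27.3, 28.8, 21.2 and 32.6 in mock and 34.4, 35.4, 29.00 and 23.3 with the inhibitor. Its footprints were 10.3, 7.54, 4.33 and 9.15 in GFP libraries, 8.57, 10.3, 6.41 and 8.62 in mock and 10.7, 8.02, 4.96 and 10.99 with the inhibitor. The groups overlapped in both, with library 3 lowest in footprints of each group. Rfc5 RNA was 55.8, 75.99, 69.7 and 73.6 in GFP libraries, 75.3, 87.9, 59.8 and 72.3 in mock and 59.6, 77.97, 73.8 and 79.7 with the inhibitor. Its footprints were 30.6, 30.5, 23.5 and 26.3 in GFP libraries, 30.9, 36.4, 24.4 and 23.1 in mock and 30.1, 29.5, 26.9 and 29.97 with the inhibitor. These groups overlapped too.

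Rfc4 had the largest positive difference in mRNA. Its RNA was 12.6, 22.2, 12.7 and 7.78 in GFP libraries, 19.8, 17.0, 22.9 and 11.2 in mock and 24.3, 25.8, 18.2 and 11.8 with the inhibitor. Each inhibitor library exceeded the GFP library of its number, but inhibitor and mock values intermingled.

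The Rfc4 mRNA difference from GFP was 0.53 (log2, SE 0.31, adjusted p = 1 by limma; with the block SE 0.19, adjusted p = 0.533). From mock it was 0.15 (SE 0.31), and GFP differed from mock by -0.38 (SE 0.31). Without GFP RNA 4, but with inhibitor RNA 4 kept, the unpaired difference from GFP was 0.31. By same-numbered pair it was 0.89, 0.21, 0.49 and 0.54 in libraries 1 to 4. With FPKM as deposited, where all genes shifted by -0.39, the difference from GFP was 0.04. In footprints Rfc4 was 18.4, 15.5, 9.52 and 13.4 in GFP libraries, 18.7, 16.9, 13.1 and 12.4 in mock and 22.3, 17.1, 11.8 and 19.99 with the inhibitor, which overlapped. The difference from GFP was 0.31 (SE 0.23), positive in 4 of 4 pairs and not past the test. It was 0.14 without GFP footprint 3, 0.19 without inhibitor footprint 1 and 0.48 without inhibitor footprint 3. These unpaired fits kept the same-numbered partner, and by pair the footprint difference was 0.26, 0.13, 0.29 and 0.54 in libraries 1 to 4.

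RPA is a trimer of RPA1, RPA2 and RPA3. In GFP RNA Rpa1 stood at 79.1, Rpa2 at 43.05 and Rpa3 at 29.6, and in footprints at 51.3, 25.4 and 39.2, so that Rpa3 was lowest in RNA and intermediate in footprints. Rpa3 had the highest ratio of footprints to RNA of all members, 0.61 (SE 0.52), at the 97.5th percentile of genes. Its RNA was 14.3, 65.4, 20.1 and 18.8 in GFP libraries, 24.8, 40.9, 37.1 and 16.8 in mock and 27.9, 35.3, 27.6 and 15.7 with the inhibitor. Its footprints were 50.3, 47.1, 32.7 and 26.8 in GFP libraries, 35.7, 52.9, 41.5 and 34.01 in mock and 60.2, 41.03, 20.7 and 43.8 with the inhibitor. GFP RNA 2 stood far above the other GFP RNA libraries, and the groups overlapped in both assays.

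Rpa2 footprints were 25.6, 25.03, 26.4 and 24.5 in GFP libraries, 23.2, 25.2, 29.2 and 21.5 in mock, and 28.1, 26.9, 28.5 and 29.7 with the inhibitor. The inhibitor values were all above the GFP values, mock 3 exceeded 3 of the 4 inhibitor values, and the difference from GFP was small, 0.15 (log2, SE 0.13, adjusted p = 1 by limma). Rpa2 RNA was 39.4, 38.9, 45.2 and 48.7 in GFP libraries, 44.1, 46.7, 38.6 and 41.1 in mock and 41.4, 55.2, 42.7 and 58.7 with the inhibitor, which overlapped.

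Rpa1 RNA was 73.5, 90.5, 72.7 and 79.7 in GFP libraries, 71.03, 84.7, 74.04 and 71.8 in mock and 75.6, 98.9, 84.96 and 84.5 with the inhibitor. Its footprints were 69.5, 48.8, 42.4 and 44.4 in GFP libraries, 50.1, 69.1, 41.96 and 36.1 in mock and 73.7, 52.03, 47.2 and 53.5 with the inhibitor. The groups overlapped in both, and the difference from GFP was 0.12 (SE 0.15) in mRNA and 0.15 (SE 0.22) in footprints, positive in 4 of 4 pairs of each.

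**Figure D4:**
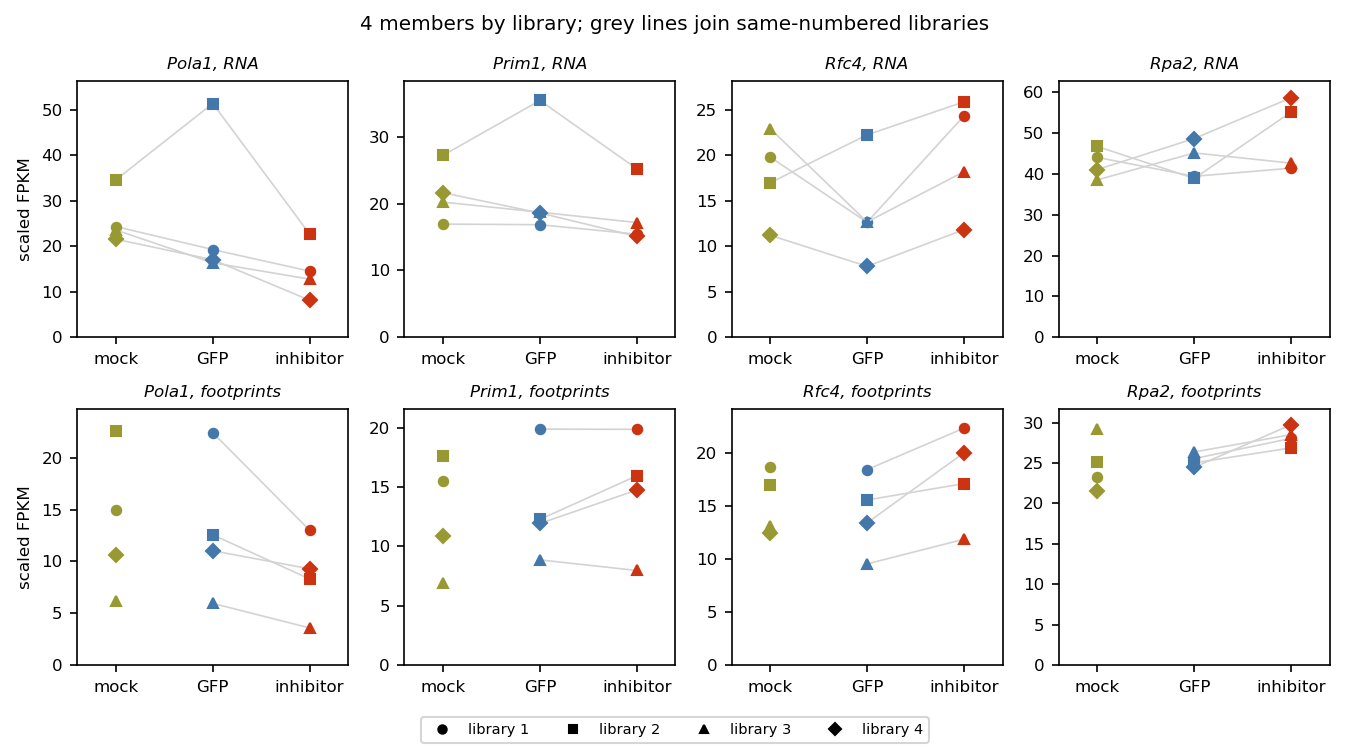
Scaled FPKM of Pola1, Prim1, Rfc4 and Rpa2 in RNA (upper) and footprints (lower) by transfection; each symbol is 1 library, its shape gives the library number, and grey lines join same-numbered libraries where numbers pair. The inhibitor points of Pola1 lie below the GFP points of their number, 22.7 against 51.4 in RNA library 2, and the inhibitor points of Rpa2 footprints (26.9 to 29.7) lie above the GFP points (24.5 to 26.4).

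Fen1, the flap nuclease of Okazaki fragment processing, and Lig1, the ligase that seals them, were at 45.6 ± 11.95 and 45.9 ± 9.13 in GFP RNA and at 43.5 ± 15.8 and 45.0 ± 8.57 with the inhibitor (SD, n = 4). Both differed from GFP by less than 0.10 log2 units in mRNA and footprints. For nucleotide supply, Rrm2, the regulated small subunit of ribonucleotide reductase, stood at 93.0 ± 43.2 in GFP RNA and 92.7 ± 14.3 in footprints. Rrm1, the large subunit, was lower in RNA at 42.6 ± 16.7, with 29.0 ± 12.03 in footprints. Tyms, which makes thymidylate, was at 22.8 ± 3.01 and 12.3 ± 1.26. The inhibitor differed from GFP by -0.05 (Tyms), -0.01 (Rrm2) and 0.10 (Rrm1, SE 0.25) in mRNA and by 0.05, 0.02 and 0.33 (SE 0.32) in footprints.

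The comparison with mock uses the same inhibitor libraries, so it is not independent of the comparison with GFP. By limma 0 of 43 genes passed in mRNA, where 0.0239% of genes did, and in footprints and translational efficiency, where 0% did. With the block in mRNA, 0 of 43 passed against 0.271% of genes. At an unadjusted p under 0.05, 1 member was found in mRNA, Pola1, against 3.66% of genes (with the block 1, against 8.43%), and 0 in footprints and translational efficiency, against 3.56% and 0.906%. Pola1 differed from mock by -0.86 in mRNA (log2, SE 0.35, unadjusted p = 0.0274, adjusted p = 1; with the block adjusted p = 0.118) and by -0.59 in footprints (SE 0.44, adjusted p = 1). The footprint value was -0.31 without mock footprint 2, -0.27 without inhibitor footprint 3 and -0.88 without mock footprint 3.

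Members higher than mock in all 4 mRNA pairs were Gins4, Rpa1 and Rrm1, and those lower were Pola1, Prim1 and Rfc3, against 6.91% and 7.65% of all genes. No member's groups were apart, where 1.13% of genes were wholly higher and 1.22% wholly lower in mRNA, and 0.947% and 1.07% in footprints. The members' median differences from mock were 0.01 in mRNA, 0.01 in footprints and -0.01 in translational efficiency. The 2 controls, compared with each other, had 0 of 43 genes past the test in each measure, against 0% of genes in mRNA, 0.00938% in footprints and 0% in translational efficiency. At an unadjusted p under 0.05 the members again numbered 0 in each, against 0.526%, 0.450% and 0.372% of genes. Their largest difference in mRNA was 0.42 (Gins1, GFP above mock, SE 0.26).

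The members varied more with library number than with transfection. Of each gene's sum of squares on the log2 scale, number took a median of 61.8% in RNA and 67.7% in footprints over the 43 genes, and transfection 5.53% and 5.03%; over all genes the shares were 49.7% and 49.6% for number and 8.14% and 8.03% for transfection. The share by number uses 3 degrees of freedom and that by transfection 2. Number exceeded transfection in 41 of 43 genes in each assay, against 87.4% of all genes in RNA and 85.7% in footprints. The footprint shares group mock libraries 1 and 2 by numbers that did not pair them. Over GFP and inhibitor footprints alone, a set chosen after seeing the data, number took a median of 80.1% over the members and 69.1% over all genes, and it exceeded transfection in 42 of 43 members and in 91.2% of all genes. Mcm3 was the clearest case, with 97.3% by number in footprints: GFP libraries gave 68.7, 61.2, 30.3 and 67.9, mock 61.6, 66.1, 35.9 and 66.9, and inhibitor 62.4, 65.5, 30.1 and 70.2. The 3 libraries numbered 3 lay below all others.

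In these 3 footprint libraries the members' median deviation from the gene mean was -0.38 (GFP), -0.21 (mock) and -0.28 (inhibitor), against -0.12, -0.09 and -0.06 for all genes. Their relative depths were 79.7%, 100% and 20.6%, and the part of depth was not tested. GFP RNA 2 stood apart in another way: its deviations spread over the members with an SD of 0.54, against 0.16 to 0.40 in the other RNA libraries. Orc4 was highest there (1.38 above its mean) and Pold1 lowest (-0.76). Its Rn45s share was 2.46% and its relative depth 99.4%. Without GFP RNA 2, 0 of 43 genes passed in mRNA, as with all libraries.

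**Figure D5:**
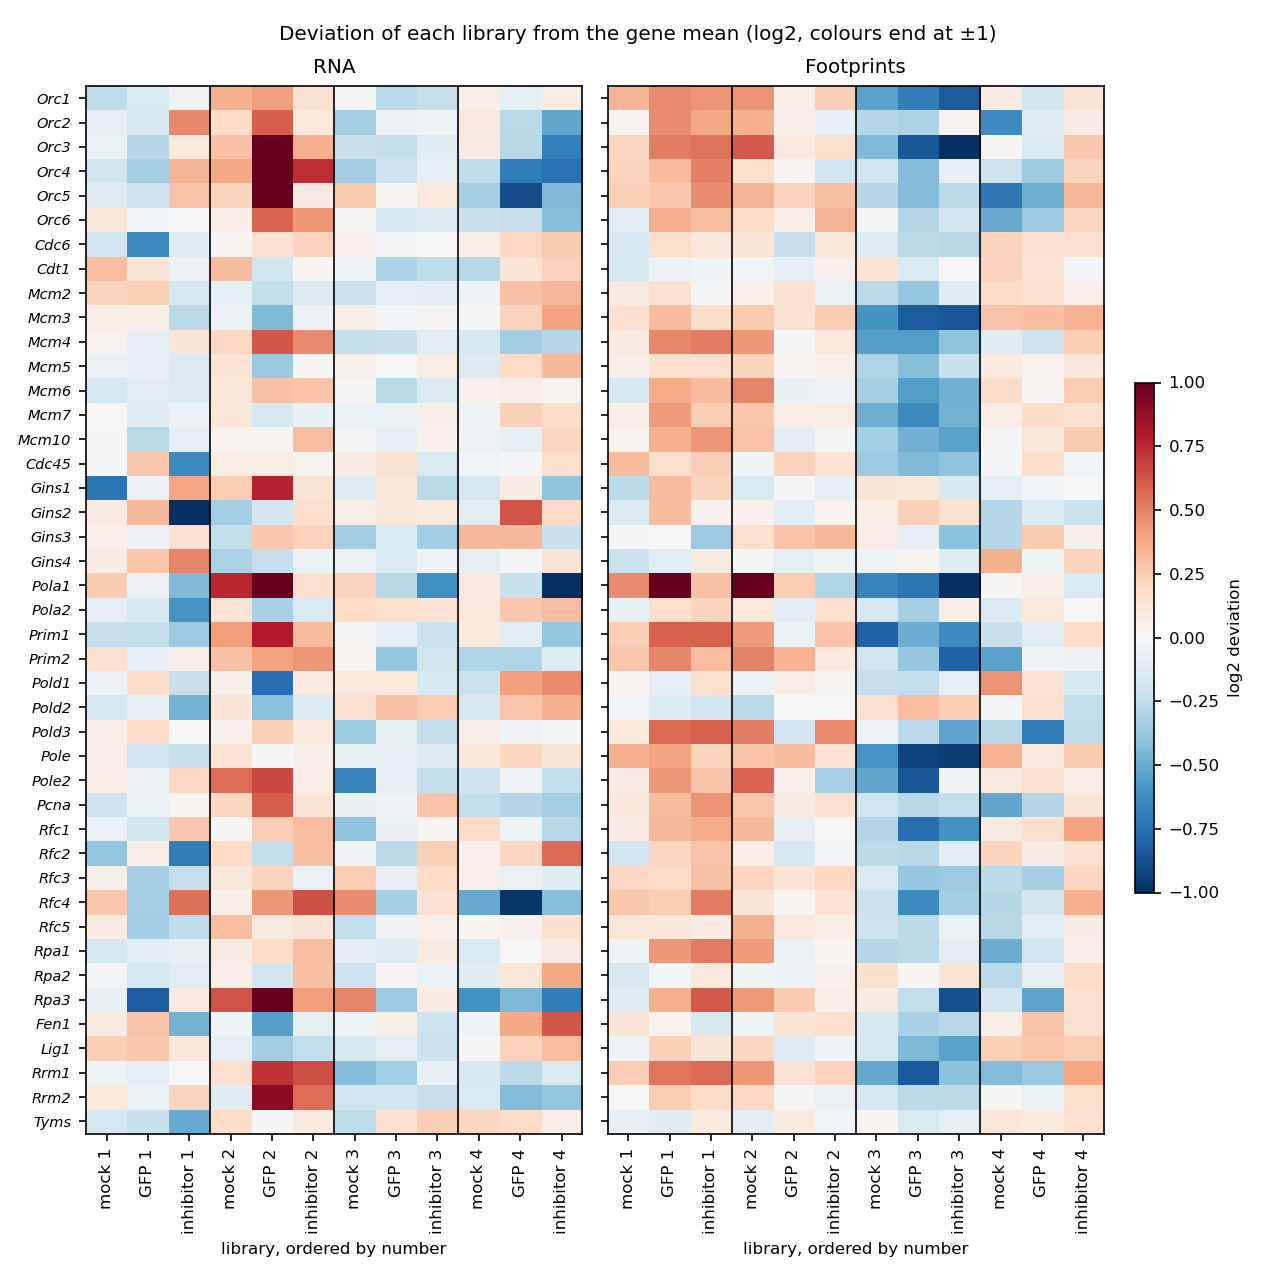
Log2 deviation of each library from the mean of 12 libraries, for the 43 genes (rows) in RNA and footprints (panels), with libraries ordered by number and black lines between numbers; red is above and blue below the gene's mean, and colours end at 1. Footprint libraries numbered 3 are blue for most genes in all 3 transfections, with member medians of -0.38, -0.21 and -0.28, and GFP RNA 2 holds the darkest red cells of the RNA panel.

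Other genes of the pathway were read as 4 lists around the members, and none had a gene past the test by limma, with or without the block. Against GFP, the median of all genes tested was -0.01 in mRNA and 0.01 in footprints. In that comparison 7 of 17 licensing and firing regulators were above 0 in mRNA with a median of -0.03, and 8 of 17 in footprints with a median of -0.01. Mtbp, a partner of the firing factor treslin, was at 13.4 ± 4.66 in GFP RNA and 9.89 ± 2.65 with the inhibitor (-0.38, SE 0.24), and Ccne1, cyclin E1, differed by 0.27 (SE 0.26). Of 33 fork, checkpoint and chromatin assembly factors, 14 were above 0 in mRNA (median -0.03) and 16 in footprints (-0.01). Dscc1, a subunit of the alternative clamp loader that acts in cohesion, had 6.49 ± 1.86 in GFP RNA and 3.17 ± 1.07 with the inhibitor, a difference of -0.85 (SE 0.32, unadjusted p = 0.0199, adjusted p = 1) in mRNA and -0.53 (SE 0.27) in footprints.

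Pole3, a histone-fold subunit of polymerase epsilon, differed by 0.39 (SE 0.20) in mRNA and by -0.64 (SE 0.31, unadjusted p = 0.0478, adjusted p = 1 by limma) in translational efficiency. The footprints of the histone chaperone gene Asf1a differed by 0.59 (SE 0.31). Of 32 further genes of nucleotide synthesis 16 were above 0 in mRNA (median 0.00), and 21 of the 31 tested in footprints (median 0.04). Impdh2, of guanine nucleotide synthesis, differed by 0.20 (SE 0.15) and Tk1, thymidine kinase, by 0.28 (SE 0.21) in mRNA. Dck, deoxycytidine kinase, differed by 0.41 (SE 0.16, unadjusted p = 0.0260, adjusted p = 1) in footprints. Of 19 mitosis genes 5 were above 0 in mRNA, with a median of -0.06 (all genes -0.01), and 13 in footprints, with a median of 0.04 (all genes 0.01). Mki67, which encodes the proliferation marker Ki-67, was at 11.5 ± 0.95 in GFP RNA and 9.10 ± 2.08 with the inhibitor (-0.33, SE 0.21), and the cyclin gene Ccnb2 differed by -0.26 (SE 0.17).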

How the data were processed

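The authors deposited FPKM per gene for 12 RNA and 12 footprint libraries. Footprints were RNAs of 26 to 32 nucleotides from 80S ribosomes, per the labels' protocols. The submitters' processing notes name RSEM, Bowtie2, TopHat and CASAVA 1.8.2, and the mm10 build, with no other version given. RSEM divides shared reads among transcripts by an estimate.

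FPKM were scaled by medians of ratios over genes of at least 5 FPKM in every library (1717 in RNA, 2960 in footprints). Genes with a mean of at least 0.5 scaled FPKM were tested as log2(scaled FPKM + 1), which understates changes of low genes, with limma 3.58.1 in R 4.3.3 (trended, robust, all 3 groups of a table, unpaired, two-sided), and Benjamini-Hochberg adjusted over every gene tested (threshold 0.05). Translational efficiency was an interaction over 24 libraries. The procedure was tested on simulated data in which libraries varied independently, so variation shared by library number was not covered. Python 3.11.15, numpy 2.4.6, pandas 2.3.3 and matplotlib 3.10.9 made descriptions and plots.

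The members and lists were chosen with earlier results of these data known. Values in every library are given for members past the threshold, with the smallest p in each direction against GFP, with the highest or lowest level or ratio in GFP, and for the highest and lowest subunit of 5 complexes in GFP footprints; of other lists, genes among the 2 with the smallest p are named. Prim1 RNA and Mcm3 footprints were given by library after their values were seen. Library numbers come from the labels. Deviations of same-numbered libraries from group means correlated at 0.295 to 0.773 in RNA and at 0.448 to 0.811 between inhibitor and GFP footprints. Inhibitor RNA 3 correlated less with mock RNA 3 (0.295) than with a mock library of another number (0.321). In the other cases the same number gave the higher correlation, and numbers were taken to pair these libraries. With mock footprints, numbers 3 and 4 correlated at 0.376 to 0.837, but numbers 1 and 2 at -0.194 to 0.134, and these reached 0.568 to 0.826 with another number. Whether mock footprints 1 and 2 carry exchanged numbers was not tested, and comparisons with mock footprints are treated as unpaired. Columns of values left out numbered 0.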

Additional observations from a re-analysis of the deposited data

Results flagged for a closer look

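A library was marked where it lay far from the other 3 of its group, by the ratio of its gap to the group's range (Dixon's 95% limit). Of 258 groups of 4 values, 19 were marked (7.36%), where chance marks about 1 in 20. Values are scaled FPKM. GFP RNA 2 held 7 of them, all high: Gins1 at 24.9 (others at most 15.5), Orc3 at 14.7 (at most 5.39), Orc4 at 16.6 (at most 4.83), Pola1 at 51.4 (at most 19.3), Pole2 at 19.5 (at most 11.4), Prim1 at 35.4 (at most 18.7) and Rpa3 at 65.4 (at most 20.1).

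Footprint libraries numbered 3 held 6, all low. In GFP footprint 3 these were Cdc45 at 7.47 (others at least 11.98) and Mcm2 at 46.6 (at least 68.1), and in mock footprint 3 Pole at 3.82 (at least 7.86). In inhibitor footprint 3 they were Cdc6 at 6.89 (at least 9.38), Pole at 2.78 (at least 7.04) and Rfc3 at 10.7 (at least 16.3). The other 6 were single RNA values. Mock RNA 1 was low for Cdc6 at 10.5 and high for Fen1 at 45.9, and mock RNA 3 was low for Pold3 at 10.7. With the inhibitor, Gins2 was low in RNA 1 at 12.1, Rrm1 high in RNA 2 at 63.8 and Mcm2 high in RNA 4 at 114.5.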

How the results depend on the processing

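All 195 recomputed counts of members past the threshold stayed at 0, over pseudocounts of 0.1 and 5, filters of none and 5 FPKM, unscaled and quantile-normalized values, plain empirical Bayes, 2-group fits, fits with the replicate block and fits that left out each library or all libraries numbered 1. Of 195 recomputed medians over the members, 4 moved by more than the spread between replicate libraries, all with FPKM as deposited: to -0.49 in mRNA against GFP (all genes -0.39), -0.24 against mock (all genes -0.19), 0.26 for GFP against mock (all genes 0.21) and 0.49 in translational efficiency against GFP (all genes 0.40), where Prim2 reversed to 0.055 (adjusted p = 0.987 by limma). Unscaled values shift all genes together, and there Pola1 mRNA was -1.19 against GFP and Pold3 translational efficiency 0.74. Leaving out 1 library gave medians against GFP of -0.04 to 0.10 in mRNA, -0.04 to 0.17 in footprints and -0.05 to 0.21 in translational efficiency, and differences of Pola1 of -0.94 to -0.34 in mRNA and -0.82 to -0.21 in footprints, and against mock of -1.09 to -0.63 and -0.88 to -0.27. Fits that left out 1 library were unpaired and kept the other libraries of its number. The replicate block left the median in mRNA against GFP at 0.01. With the block, where numbers do not pair mock footprints, Pola1 differed from mock by -0.59 (adjusted p = 0.470) and 0 members passed. The lowest adjusted p of Pola1 over all alternatives was 0.275 in mRNA against GFP, 0.167 in footprints against GFP and 0.118 in mRNA against mock. The footprint to RNA ratio of the members in GFP ranged from -0.84 to -0.55 over alternatives chosen after seeing the data. With 4 libraries a group and unknown counts per gene, the intervals, and not the threshold, set what sizes can be read.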
